A study of Mus musculus with 6 samples.

Results

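The 9 genes described here are *Hdac4*, *Sirt1*, *Tet2*, *Purb*, *Sp1*, *Max*, *Esr1*, *Cdk6* and *Erbb3*, which have been reported as targets of miR-22 in other tissues or cell types. Members were found by taking every array probe whose RefSeq accession belongs to one of them. All 9 had at least 1 probe, among 23462 genes with a probe, and they had 22 probes in all. The question was whether their mRNAs were higher in brown adipose tissue (BAT) that lacked miR-22. BAT came from 3 wild-type (WT) mice and 3 mice with a miR-22 knockout (KO), all male and 8 weeks old, with 1 mouse per array. The KO is global, so miR-22 is missing from every cell type and not from brown adipocytes alone. No treatment is given for either group, and the strain is not given in the sources used here.

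A microRNA guides the Argonaute protein to mRNAs that pair with its seed, the short stretch near its 5′ end. Pairing usually lies in the 3′ UTR of the target and lowers translation, mRNA stability or both. When a microRNA is removed, the mRNA of a direct target may therefore rise, but a change in protein alone would not be visible on an expression array. BAT burns lipid and glucose to produce heat through the uncoupling protein Ucp1.

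The sequences of miR-22 are shown because its seed is what a reported target is held to pair with. They were taken from RefSeq on GRCm38.p6, 5′ to 3′, with the seed (bases 2 to 8) in capitals.
miR-22-3p: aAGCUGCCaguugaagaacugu
miR-22-5p: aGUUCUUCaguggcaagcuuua
An mRNA that pairs with the whole seed of miR-22-3p carries the letters GGCAGCU, and one that pairs with the seed of miR-22-5p carries GAAGAAC. Among 1679 mature mouse miRNAs in the same table, each of these seeds was found in 1 miRNA. miR-22-3p lies at chr11:75463772-75463793 and miR-22-5p at chr11:75463734-75463755, both on the plus strand and inside the non-coding host gene *Mir22hg*. No 3′ UTR was searched for the matching letters, since UTR sequences were not used here.

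The arrays had no probe for mature miR-22, so its loss was not measured. The probe of *Mir22hg* gave scaled log2 signals of 1.20, 1.69 and 1.22 in WT mice and 2.02, 2.11 and 2.23 in KO mice. The scaled log2 signal is the background-subtracted intensity relative to the 75th percentile of its array. All 3 KO mice were above all 3 WT mice, as for 14.2% of genes with 6 unmarked values. The difference was 0.75 (SE 0.18, unadjusted p = 0.00383, adjusted p = 0.108, limma). Where this probe lies relative to the deleted sequence is not given in the sources used here, so it does not check the labels.

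The arrays had 55.8 to 66.5% of non-control spots well above background, and none was saturated. The scanner software marked 4.87 to 17.1% of spots as not uniform or as outliers, most of all on the arrays of the third WT mouse (17.1%) and the first KO mouse (15.1%). Marked spots were left out of the tests. Brown adipocyte markers (10 of 10, among them *Ucp1*) and markers of all adipocytes (8 of 8) were above background on all 6 arrays. Skeletal muscle markers varied most, with a mean over 15 genes of 2.78, 1.98 and -4.40 in WT mice and 0.47, 3.67 and 1.90 in KO mice, and 8 of the 15 were above background on every array. Whether muscle attached to the tissue had a part in any result was not tested. No other list's mean moved by more than 0.89 between the arrays. Of the 8 epithelial markers, *Krt5*, *Krt14*, *Krt8* and *Cldn4* were above background on no array. The mean of 8 lymphocyte markers, 4 of them above background on all arrays and *Ms4a1* on none, was -5.05, -4.68 and -4.75 in WT mice and -4.29, -4.58 and -4.49 in KO mice, without overlap.

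None of the reported targets that could be tested passed the test of a difference between KO and WT mice. Of the 9 genes, 7 had a probe that could be tested, *Purb* had too many marked spots, and *Erbb3* was above background on no array. Of these 7, 0 were higher and 0 were lower at an unadjusted p under 0.05 (limma, two-sided). Over all 14711 genes, 10.0% were higher and 8.82% were lower, and 7 genes are too few to tell 0 from these shares. After adjustment over all genes the members again gave 0 in each direction, against a background of 0.143% higher and 0.0408% lower. SAM and the methods' t-test also gave 0 members in each direction at an unadjusted p under 0.05. The difference was above 0 for 2 of 7, against 47.1% of all genes. The median of the 7 was -0.08, with a range from -0.17 to 0.26, and the median of all genes was -0.03. In whole tissue, fewer cells that carry an mRNA and less of it per cell cannot be told apart. The limma p-values set each difference against the spread between mice of a group, which limma draws toward the spread typical of all genes.

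Among the chromatin enzymes, *Hdac4* encodes a class IIa histone deacetylase that binds Mef2 factors and represses their targets. Its brightest probe (A_51_P417839) gave -0.93, -1.08 and -1.73 in WT mice and -0.92, -0.80 and -1.24 in KO mice, with the first KO spot marked. The third WT mouse was lowest and the second KO mouse highest, and the groups overlapped. The difference was 0.22 (SE 0.29, 95% interval -0.49 to 0.94, adjusted p = 0.693, limma), which is a fold of 1.17 with an interval of 0.713 to 1.92. The same WT mouse had the lowest skeletal muscle mean (-4.40) and the same KO mouse the highest (3.67), and the part of muscle in this gene was not tested. The other tested probes of *Hdac4* differed by 0.07 (SE 0.16) and 0.11 (SE 0.28), and their order of mice was not the same. The first of them gave -2.16, -2.41 and -2.16 in WT mice and -2.05, -2.35 and -2.11 in KO mice. On the second, the second KO mouse was highest (-1.14) and the third KO mouse lowest (-1.92). The interval of the brightest probe was the widest among the members, and it allows a rise close to 2-fold as well as a fall.

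*Sirt1* encodes an NAD-dependent deacetylase that acts on histones and on the coactivator Ppargc1a. The signal was 1.13, 0.92 and 1.0 in WT mice and 1.05, 0.75 and 1.04 in KO mice. Every KO value but that of the second mouse lay within the range of the WT mice. The difference was -0.07 (SE 0.15, 95% interval -0.42 to 0.28, adjusted p = 0.81, limma), and the interval of the fold ended at 1.21. A second probe of *Sirt1* was above background on 1 array and was not tested.

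*Tet2* encodes a dioxygenase that oxidizes 5-methylcytosine. Its brightest probe gave 0.41, 0.45 and 0.66 in WT mice and 0.39, 0.32 and 0.37 in KO mice, with the third WT and first KO spots marked. The KO values lay below the WT values, by a margin smaller than the spread within WT mice. The difference over the unmarked spots was -0.08 (SE 0.17, 95% interval -0.53 to 0.36, adjusted p = 0.81, limma). With the marked spots kept it was -0.15 (adjusted p = 0.533). A second, dim probe of *Tet2*, above background on 5 arrays, differed by -0.08 (SE 0.23).

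Of the transcription factors, *Purb* encodes a single-stranded DNA-binding protein that represses muscle genes. Its only probe was above background on all 6 arrays, at 2.89, 2.68 and 2.93 in WT mice and 3.13, 2.72 and 3.01 in KO mice. The spots of the third WT mouse and of the first and second KO mice were marked, which left 1 usable KO value and no test. With the marked spots kept, the groups overlapped and the difference was 0.12 (SE 0.16, 95% interval -0.26 to 0.49, adjusted p = 0.689, limma). In that setting 8 members were tested and 0 passed an unadjusted p under 0.05, where 9.47% of all genes were higher and 11.1% lower. *Purb* gave 0.30 (adjusted p = 0.416) when quantile normalization was used as well.

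*Sp1* encodes a zinc finger factor that binds GC-rich promoters of many genes. The signal was 1.35, 1.47 and 1.09 in WT mice and 1.17, 1.01 and 1.40 in KO mice, with the first KO spot marked. The groups overlapped, with the second KO mouse lowest and the second WT mouse highest. The difference was -0.10 (SE 0.20, 95% interval -0.60 to 0.40, adjusted p = 0.807, limma).

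*Max* encodes the partner that Myc proteins need to bind DNA. Its brightest probe (A_51_P188211) gave 2.27, 2.59 and 2.39 in WT mice and 2.29, 2.12 and 2.33 in KO mice. The KO mice were lower on average and the groups overlapped, with a difference of -0.17 (SE 0.15, 95% interval -0.51 to 0.18, adjusted p = 0.553, limma). The interval of the fold ended at 1.13, the lowest upper end among the tested members. The other probe of *Max* (A_55_P2745603) went the opposite way, at -1.45, -2.43 and -1.51 in WT mice and -0.86, -1.41 and -1.31 in KO mice. All 3 KO values were above all 3 WT values on that probe, which also held for 14.2% of genes with 6 unmarked values. Its difference was 0.60 (SE 0.30, 95% interval -0.10 to 1.31), with an unadjusted p of 0.0838 and an adjusted p of 0.365 over all probes (limma). Both probes were above background on every array, so *Max* has no single direction here.

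*Esr1* encodes estrogen receptor alpha, a nuclear receptor. Its brightest probe gave 0.54, 0.71 and 0.83 in WT mice and 0.75, 1.18 and 0.72 in KO mice, with the third WT spot marked. The second KO mouse stood above the rest, and the other KO mice lay close to the upper WT values. The difference over unmarked spots was 0.26 (SE 0.20, 95% interval -0.24 to 0.76, adjusted p = 0.513, limma), and the fold was 1.20 with an interval of 0.848 to 1.69. It was 0.11 without the second KO mouse and 0.19 with the marked spots kept. A second probe read 0.07, 0.17 and 0.40 in WT mice and 0.26, 1.03 and 0.11 in KO mice, again with the second KO mouse highest, and differed by 0.25 (SE 0.26). Another probe gave 0.11 (SE 0.23). The other 3 probes of *Esr1* were above background on at most 2 arrays.

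*Cdk6* encodes the kinase that, with D cyclins, phosphorylates the Rb protein at entry into the cell cycle. The signal was -0.77, -0.59 and -0.85 in WT mice and -0.93, -0.62 and -0.99 in KO mice. The second KO mouse was among the WT values and the other KO mice were below them. The difference was -0.11 (SE 0.16, 95% interval -0.49 to 0.26, adjusted p = 0.711, limma), and the interval of the fold ended at 1.20. The other probes of *Cdk6* were above background on 2 and 0 arrays.

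*Erbb3* encodes a receptor of neuregulins that signals together with Erbb2. Its only probe was above background on 0 of 6 arrays, so no difference is given. Schwann cells, which carry Erbb3, were measured by their markers, and 9 of 10 of these were above background on all arrays. The Schwann cell list had a mean of 0.08, -0.05 and -0.42 in WT mice and -0.74, -0.29 and -0.40 in KO mice.

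Of the 3 members with 6 unmarked values on the probe that stood for the gene (*Sirt1*, *Max* and *Cdk6*), 0 had all KO mice above all WT mice and 0 had all of them below. Among 11576 genes of this kind, 14.2% had all KO mice above and 14.7% all KO mice below. Of 13 tested member probes, 7 had a difference above 0, and 0 had an unadjusted p under 0.05.

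**Figure D1:**
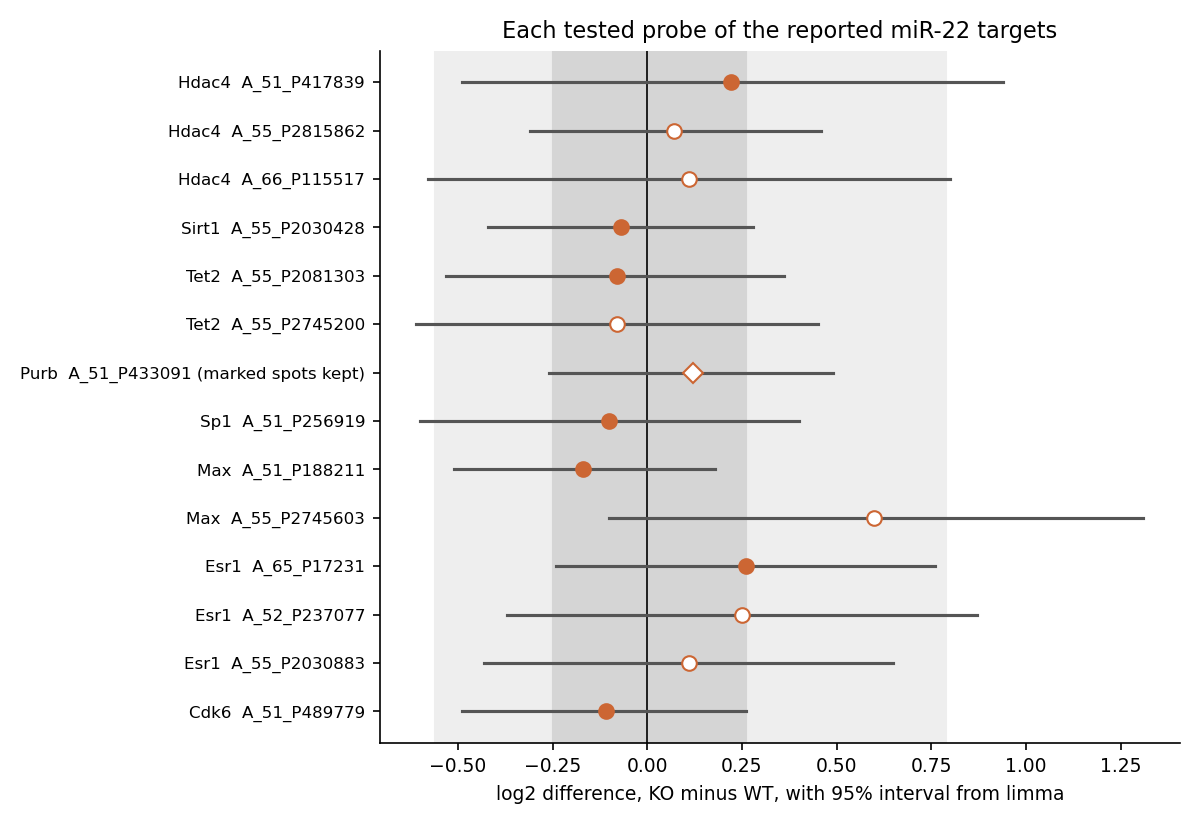
Difference in log2 signal (KO minus WT) with its 95% interval for the 13 tested probes of the reported targets and for *Purb* with marked spots kept (diamond). Filled circles mark the probe that stood for the gene and open circles the other probes. The dark grey band spans the quartiles of the differences of all 14711 genes (-0.25 to 0.26) and the light grey band their 5th to 95th percentile (-0.56 to 0.79). Every interval includes 0.

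*Hif1an*, which encodes the asparagine hydroxylase that inhibits Hif1α, and *Tsc1*, which encodes an inhibitor of mTORC1, were examined as targets in BAT by the study and were set beside the members. *Hif1an* was -0.68, -0.70 and -0.74 in WT mice and -0.50, -0.75 and -0.65 in KO mice, a difference of 0.07 (SE 0.13, adjusted p = 0.782, limma). *Tsc1* was 0.42, 0.83 and 0.76 in WT mice and 0.60, 0.55 and 0.60 in KO mice, a difference of -0.08 (SE 0.15, adjusted p = 0.786, limma). The groups overlapped for each gene, so the mRNA rise reported by qRT-PCR was not seen on these arrays. Whether the qRT-PCR used the same mice is not stated. The study also reported more protein of both in KO BAT and repression of their 3′ UTRs in reporter assays, which arrays do not measure. The intervals of the fold ended at 1.30 for *Hif1an* and 1.22 for *Tsc1*, so they allow a modest rise. A further 24 genes reported elsewhere as miR-22 targets were listed, of which 17 were tested, with a median of 0.05 and 9 above 0. At an unadjusted p under 0.05, 1 of them was higher and 1 lower, beside 10.0% and 8.82% of all genes. With the marked spots kept, 22 were tested, 1 was higher and 2 were lower. *Snai1*, an inducer of the epithelial to mesenchymal transition, was higher by 0.49 (SE 0.16, adjusted p = 0.19, limma). *Mycbp*, which encodes a Myc-binding protein, was lower, with a difference of -0.51 (SE 0.18, adjusted p = 0.246, limma).

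Several families of relatives and partners of the members held genes that passed an unadjusted p under 0.05. Each list was compiled from what its genes do, but with earlier results of these data known, so its counts are a description. None of the listed genes passed the adjusted threshold, so the counts that follow use the unadjusted one, with the background of 10.0% higher and 8.82% lower given above. Where groups are said not to overlap, 14.2% of genes with 6 unmarked values had all KO mice above and 14.7% all below. Differences between a member and its relatives were not tested.

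Among the sirtuins, 7 of 7 were tested, 2 were lower and 0 higher, and the median was -0.24. *Sirt5*, a mitochondrial desuccinylase, was 0.27, 0.53 and 0.58 in WT mice and -0.27, -0.31 and -0.28 in KO mice. No KO value reached the WT values, and the difference was -0.74 (SE 0.14, adjusted p = 0.0757, limma). *Sirt3*, the main mitochondrial deacetylase, differed by -0.56 (SE 0.18, adjusted p = 0.19, limma). *Sirt2*, *Sirt4*, *Sirt6* and *Sirt7* differed by -0.24, -0.33, -0.04 and 0.18 and did not pass.

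Of the Myc, Max and Mxd network, 12 of 13 genes were tested, 3 were higher and 1 lower, and the median was -0.03. *Mycn* was -2.74, -2.59 and -2.58 in WT mice and -1.62, -1.40 and -1.69 in KO mice, a difference of 1.06 (SE 0.14, adjusted p = 0.0508, limma). *Mycl* was higher by 1.95 (SE 0.43, adjusted p = 0.0975, limma) and *Myc* by 1.40 (SE 0.40, adjusted p = 0.164, limma). *Mxd1*, whose protein competes with Myc for Max, was -1.30, -1.15 and -1.47 in WT mice and -1.99, -2.21 and -2.40 in KO mice. The groups did not overlap, and the difference of *Mxd1* was -0.90 (SE 0.16, adjusted p = 0.0743, limma). The lymphocyte marker mean was also higher in KO mice, at -4.45 against -4.83, and its part in the Myc, cyclin and Dnmt genes was not tested. That list is dim. Only the epithelial list was dimmer on average, and it was higher in KO mice too (-6.04 against -6.35), with overlap. Without the filter on dim probes the median difference of all genes was 0.14, against -0.03 with it. Among the relatives and further targets reported as higher, *Snai1*, *Rbl1* and *Dnmt3b* had low WT means too (-4.57, -3.01 and -2.76), and *Ccnd1* did not (1.25). The part of signal level in their differences was not tested.

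Of the Cdk4/6 kinases, D cyclins, inhibitors and Rb family, 15 of 18 genes were tested, 4 were higher and 2 lower, and the median was -0.04. *Ccnd1*, the cyclin D1 partner of Cdk4 and Cdk6, was 1.08, 1.44 and 1.22 in WT mice and 2.52, 2.47 and 2.65 in KO mice. Its groups were far apart, with a difference of 1.31 (SE 0.18, adjusted p = 0.0595, limma) over 2 unmarked KO values. *Rbl1*, an Rb relative, and *Cdkn2b*, an inhibitor of Cdk4 and Cdk6, were higher by 0.76 (SE 0.23) and 0.65 (SE 0.21). *Rb1*, the substrate of these kinases, was lower, with a difference of -0.42 (SE 0.13). *Cdk4*, the closest relative of *Cdk6*, differed by -0.04 (SE 0.14).

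Of the Tet enzymes, DNA methyltransferases and partners, 7 of 9 genes were tested, 2 were higher and 0 lower, and the median was -0.09. The maintenance methyltransferase *Dnmt1* was -2.22, -2.29 and -2.56 in WT mice and -1.92, -1.74 and -1.84 in KO mice, a difference of 0.52 (SE 0.15, adjusted p = 0.148, limma). The de novo methyltransferase *Dnmt3b* differed by 0.71 (SE 0.19, adjusted p = 0.134, limma). The groups did not overlap for either gene. *Tet3* differed by -0.15 (SE 0.28), and *Tet1* was above background on at most 2 arrays.

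In the remaining families 1 gene passed, *Mef2d*, which encodes a Mef2 factor bound by Hdac4 and was lower with a difference of -0.33 (SE 0.14, adjusted p = 0.257, limma) among 9 tested *Hdac4* partners. Of the class IIa deacetylases 4 of 4 were tested and 0 passed, with *Hdac5*, *Hdac7* and *Hdac9* at -0.31, 0.18 and 0.12. That count rests on the processing, since *Hdac5* passed with marked spots kept (-0.34) and *Hdac7* with quantile normalization (0.37). Of 6 tested Sp factors 0 passed, with *Sp3* at -0.41 and *Sp4* at 0.00, and of 5 tested estrogen receptors and coregulators 0 passed. *Pura* differed by -0.12 (SE 0.18) and 0 of 2 tested Pur genes passed. Of 8 tested ErbB receptors and neuregulins 0 passed, with *Egfr* at 0.15 (SE 0.14) and *Erbb2* at 0.33 (SE 0.15).

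**Figure D2:**
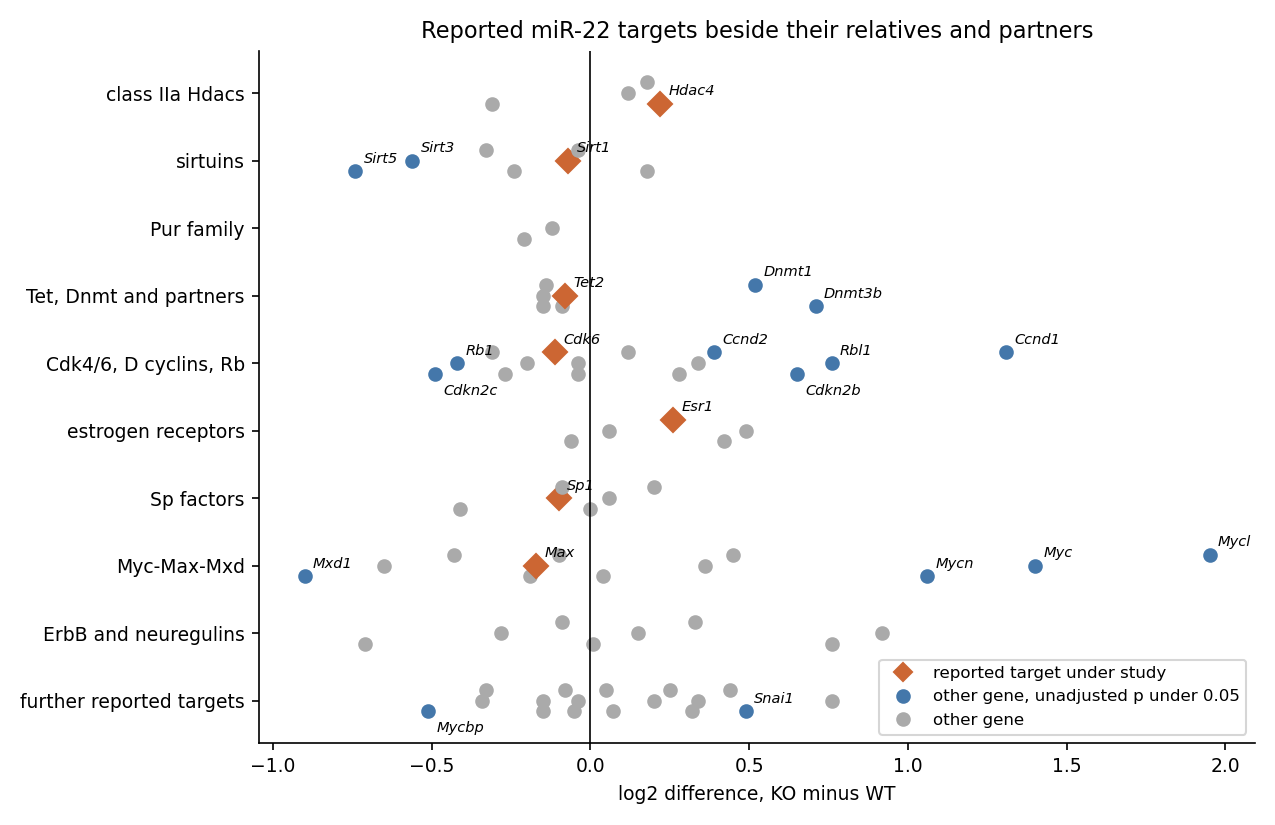
Difference in log2 signal (KO minus WT) of every tested gene of 9 families and of the further reported targets, 1 row per list (the *Hdac4* partners are not drawn). Orange diamonds are the reported targets, blue circles are other genes with an unadjusted p under 0.05, and grey circles are the rest. The diamonds lie between -0.17 and 0.26, whereas *Mycl*, *Myc*, *Ccnd1* and *Mycn* lie above 1 and *Mxd1* at -0.90.

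The array rows of the slide were not balanced, with the first and second WT mice in row 1 and the third WT mouse in row 2 with all KO mice. With the row as a block, which rests on row 2 alone, the difference was 0.71 for *Hdac4* (SE 0.29, 95% interval -0.03 to 1.45, unadjusted p = 0.0573, adjusted p = 0.605, limma). The single WT mouse of that row was the one with the lowest *Hdac4* signal. The blocked differences of *Sp1*, *Cdk6*, *Max* and *Sirt1* were 0.11, 0.00, -0.14 and -0.06, and those of other probes of *Esr1* and *Tet2* were 0.06 and -0.24. Over all genes, 6.10% were higher and 2.38% lower at an unadjusted p under 0.05 with the block. Of the relatives and further targets named above for their p in the same arrays, *Mycn*, *Mycl*, *Myc*, *Mxd1*, *Ccnd1*, *Rbl1*, *Dnmt1* and *Sirt5* were still under that p, with *Mycl* at 1.17 (SE 0.48) in place of 1.95. The others that could be fitted were not, with wider errors and the same directions. *Rb1* was -0.40 (SE 0.22), *Sirt3* -0.44 (SE 0.26) and *Mef2d* -0.27 (SE 0.22). *Dnmt3b* was 0.49 (SE 0.27), *Cdkn2b* 0.42 (SE 0.30) and *Snai1* 0.31 (SE 0.24), and *Mycbp* could not be fitted. With 1 array left out, *Mef2d* lost its call without any 1 of the WT mice and without the first or the third KO mouse (p up to 0.118), and *Sirt3* without the second WT mouse (p up to 0.0501). *Cdkn2b* lost it without the second WT mouse or the first or second KO mouse (p up to 0.0594), and *Snai1* without the first WT mouse or the first or second KO mouse (p up to 0.0698). The other 11 named genes kept it in each fit without 1 array that could be run, which was 2 fits for *Mycbp* and 4 for *Ccnd1*. These genes were named for their p in the same arrays, so this is a description.

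**Figure D3:**
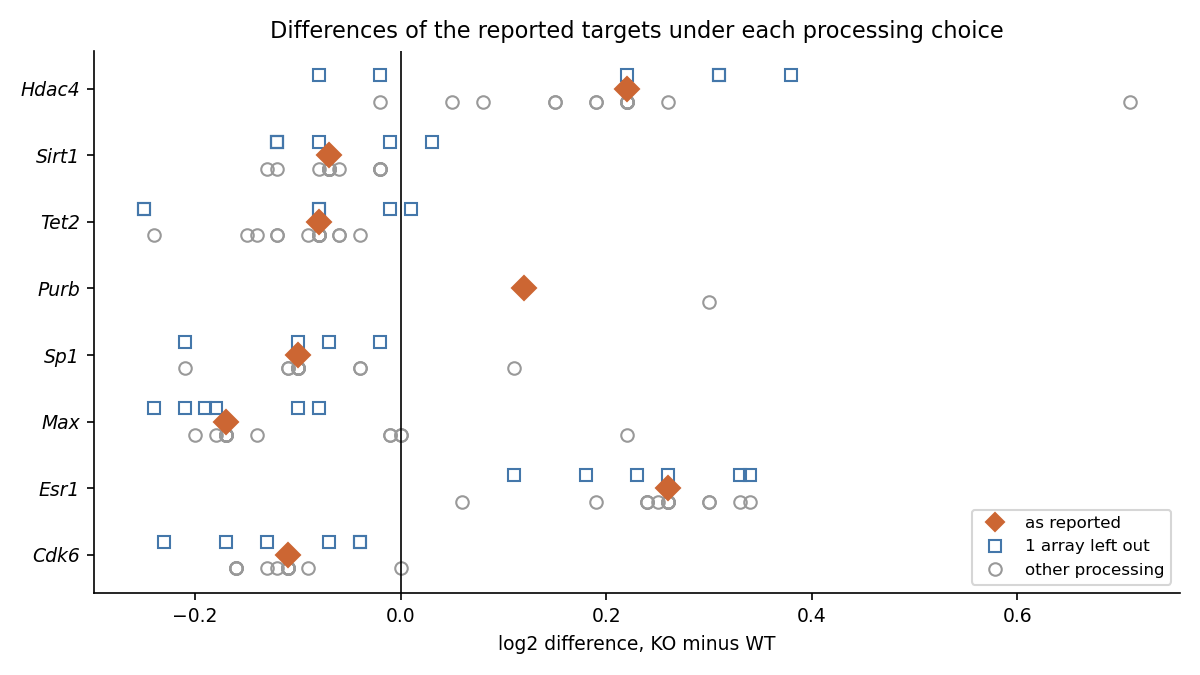
Difference in log2 signal (KO minus WT) of 8 reported targets as reported (diamonds), with 1 array left out (squares) and under the other processing choices (circles). *Esr1* stayed above 0 throughout (0.06 to 0.34), and *Hdac4* ran from -0.08 to 0.71. The probe was chosen anew in each fit, so some points of *Hdac4*, *Tet2* and *Esr1* come from other probes of the gene. *Purb* has no squares because it could be tested only with marked spots kept. Its diamond (0.12) is that setting, and its circle (0.30) adds quantile normalization.

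Across the 6 arrays, the gene whose pattern was most like that of *Max* was *Ccnt1* (Pearson's r 0.993), that of *Sirt1* was most like *Ppm1g* (0.994), and that of *Cdk6* most like *Stac* (0.989). These are the highest of 11575 correlations each, over 6 arrays that share a scaling, and are given as a description.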

How the data were processed

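BAT RNA of 6 mice (3 WT and 3 KO for miR-22) was hybridized with 1 dye (Cy3) to Agilent mouse arrays of 62976 spots. The authors deposited intensity values from Agilent Feature Extraction (version 11.5.1.1 per the file headers, 10.7 per the labels), background-subtracted and spatially detrended, and a table of log2 values for 27497 probes that the authors processed, which matched the scanner signal of its own arrays (Pearson's r at least 0.9997). The processing of that table is not given in the sources used here.

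Signals were divided by the 75th percentile of non-control spots of each array and taken as log2. Marked spots were left out. A test required a signal well above background on 3 or more arrays and 2 or more unmarked values per group. Probes were matched to genes through RefSeq accessions (GRCm38.p6 table, 33767 of 56605 probes, 59.7%), and the brightest testable probe stood for its gene. The groups were compared with limma 3.58.1 under R 4.3.3, two-sided, with Benjamini-Hochberg adjustment over 14711 genes. The threshold was 0.05. Figures were drawn with matplotlib in Python. The number of arrays limits precision, which each SE states. The steps were tested on simulated data.

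The members and lists were chosen with earlier results of these data known. Named genes were the 9 members, their closest relatives, *Hif1an*, *Tsc1* and *Mir22hg*, in each list at most 4 genes with an unadjusted p under 0.05 in order of p, and the gene most correlated with each member of 6 unmarked values. Lists of markers of adipocytes, muscle, nerve, epithelium, macrophages, lymphocytes, endothelium, fibroblasts and erythroid cells were read by their means on each array. Alternatives were other scalings, background corrections (normexp with an offset of 50 on the median signal), filters, probe rules, tests including SAM and the methods' t-test, slide row as a block, the authors' values, and leaving out each array.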

Additional observations from a re-analysis of the deposited data

How the results depend on the processing

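Under 22 alternatives, 0 members passed an unadjusted p under 0.05 in either direction, and the smallest adjusted p of any member was 0.365 to 0.634. Of 150 member values, 141 kept their sign and 9 did not, judged before rounding, with none passing the test. *Max* was 0.00 with the authors' processed values, with and without marked spots, and 0.22 as the mean of its probes. With slide row as a block *Sp1* was 0.11 and *Cdk6* 0.00 (its sign kept before rounding). Leaving out 1 array each, *Hdac4* ran from -0.08 to 0.38, *Tet2* from -0.25 to 0.01 and *Sirt1* from -0.12 to 0.03. The brightest testable probe was chosen anew in each fit, so the ranges of *Hdac4* and *Tet2* mix probes. *Hdac4* was -0.08 without the second KO mouse on another probe (A_66_P115517), since its usual probe kept too few unmarked KO values. Both ends of the *Tet2* range came from its dim probe, and its brightest probe gave -0.08 where it could be fitted. On its usual probe *Hdac4* was -0.02 without the third WT mouse and -0.02 without both arrays with the most marked spots. The cause of this change of sign was not tested. The median of the members was 0.07 with every probe as its own unit and 0.00 with the row as a block, and with every probe as its own unit 7 of 13 were above 0. With 1 array left out, 1 to 3 members were above 0, the lowest number without the third WT mouse, and without both arrays with the most marked spots it was 1. Over all genes, 799 to 1736 were higher and 311 to 1794 lower at an unadjusted p under 0.05, and the authors' values gave 1146 higher and 1582 lower. Keeping marked spots with quantile normalization, the authors' values without marked spots, and leaving out both arrays were chosen after seeing the data. Keeping the marked spots brought *Ccnd1* and *Mycn* past the adjusted threshold (limma, adjusted p = 0.0365 and 0.0449). Quantile normalization ended the calls at an unadjusted p under 0.05 of *Sirt3*, *Snai1* and *Mycbp* (differences of -0.29, 0.29 and -0.40). It brought *Hdac7* (0.37), *Mef2a* (0.40) and *Mef2b* (-0.55) under that p, and keeping marked spots brought *Hdac5* (-0.34) under it. *Ppargc1a* could not be tested without its marked spots, and with them kept it was under that p (-0.59). No paired analysis was possible because the mouse numbers are not shared between the groups. *Purb* rests on marked spots and *Erbb3* is limited by its signal.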
